A study of Homo sapiens with 12 samples.

Results

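The 53 genes described here encode core proteins of the spliceosome and were chosen by name, from the U1, U2 and Sm proteins to the U4/U6.U5 tri-snRNP and the catalytic-step factors. They are 53 of the 58288 genes listed, and each symbol matched 1 row in the tables of both lines. HPB-ALL and KOPTK1 are established cell lines of human T-cell acute lymphoblastic leukemia (T-ALL). The sample labels give 3 libraries with a shRNA against GFP, the control, and 3 with a shRNA against SHQ1 in each line, 12 in all. All cells carried a lentiviral shRNA and were cultured for 48 h with puromycin at 2 μg/mL by the labels, and the RNA was depleted of ribosomal RNA. The library columns carry numbers that name a line but no shRNA arm. SHQ1 depletion against control was therefore not analysed here, and the comparison made is HPB-ALL (libraries 7 to 12) against KOPTK1 (libraries 1 to 6), with both arms inside each line.

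The spliceosome removes introns from pre-mRNA in 2 chemical steps. The U1 snRNP pairs with the 5′ splice site, the U2 snRNP with the branch point, and the U4/U6.U5 tri-snRNP then joins and is remodelled by RNA helicases into the catalytic form. Small nuclear RNAs form its core, and most of them are surrounded by a ring of Sm proteins. SHQ1 is a chaperone for the assembly of H/ACA ribonucleoproteins, the particles that guide pseudouridylation, and the small nuclear RNAs of the spliceosome are among their substrates.

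Total counts per library, in units of 1000000 reads, were 36.8 to 42.8 in HPB-ALL and 22.9 to 36.1 in KOPTK1. The level of SHQ1, in reads per kilobase of exon and per 1000000 reads counted (RPKM), was 70.9, 72.0 and 70.9 in HPB-ALL libraries 7, 8 and 9 and 47.2, 45.9 and 48.6 in libraries 10, 11 and 12. In KOPTK1 it was 45.9, 44.5 and 46.6 in libraries 1, 2 and 3 and 41.8, 41.7 and 39.4 in libraries 4, 5 and 6. All 9 T-lineage markers reached 1 RPKM in all 12 libraries, while all 5 myeloid markers stayed below 1 RPKM and 3 of 5 B-lineage and 3 of 5 erythroid markers did so. The summed level of the B-lineage list was 41.1 to 47.0 RPKM in HPB-ALL, 25.5 to 26.2 in KOPTK1 libraries 1 to 3 and 7.44 to 8.99 in libraries 4 to 6, most of it CD79A. TLX3, a homeobox gene that HPB-ALL is known to express from a translocation, had at most 16 reads in any library, so this marker of the line's label was not found, and TLX1 and NKX2-5 were also below 1 RPKM in all libraries. Of the other ectopic T-ALL factors listed, TAL1 was at 39.1 to 45.2 RPKM in HPB-ALL, 23.8 to 26.7 in KOPTK1 libraries 1 to 3 and 12.5 to 12.7 in libraries 4 to 6. LMO1 was at 2.49 to 3.41, 1.29 to 1.78 and 0.270 to 0.590 RPKM in the same sets, and LMO2 at 0.0779 to 0.262, 0.978 to 1.10 and 1.45 to 2.5 RPKM.

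KOPTK1 libraries 1, 2 and 3 stood apart from libraries 4, 5 and 6 of the same line. Across the 24247 genes tested, their log2 RPKM values correlated with the mean of HPB-ALL at Pearson r of 0.919 to 0.925, against 0.829 to 0.833 for libraries 4 to 6. For each gene whose HPB-ALL and library 4 to 6 ranges did not overlap, the place of a library was set from 0% (mean of libraries 4 to 6) to 100% (mean of HPB-ALL). Libraries 1, 2 and 3 had median places of 44.7%, 44.3% and 46.6% over all such genes, and of 50.8%, 44.1% and 49.5% over the core spliceosome genes among them. The arm, the handling and any content of the other line's RNA cannot be told apart here. The counts, and the differences of many of the genes named, are given with and without these 3 libraries. A fit with only 3 KOPTK1 libraries cannot hold the arms of that line in equal number, so line and arm may be mixed in it.

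All 53 core spliceosome genes were expressed in both lines, and all passed the filter of a mean of 1 RPKM in either line. Their mean levels ran from the 76.5th to the 98.9th percentile of the genes tested, with a median of 46.2 RPKM against 5.82 RPKM for all genes tested. In HPB-ALL the gene means ranged from 16.6 RPKM for CDC40 to 126 RPKM for PRPF8, and in KOPTK1 from 13.4 RPKM for SLU7 to 139 RPKM for SNRPB. The order of the genes was close to the same in both lines, with a Spearman rho of 0.974 over the 53 gene means, which share exon lengths and library preparation. Neighbours in that order mostly overlapped: the ranges of 44 of 52 neighbouring pairs overlapped in HPB-ALL and those of 49 of 52 in KOPTK1. The coefficient of variation over 6 libraries had a median of 3.43% in HPB-ALL and 5.64% in KOPTK1, against 4.03% and 7.46% over the 8512 tested genes with a mean of at least 10 RPKM. Within KOPTK1 libraries 4 to 6 alone it was 2.10% (3.37% over those 8512 genes), and within libraries 1 to 3 it was 2.68% (also 3.37%).

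**Figure D1:**
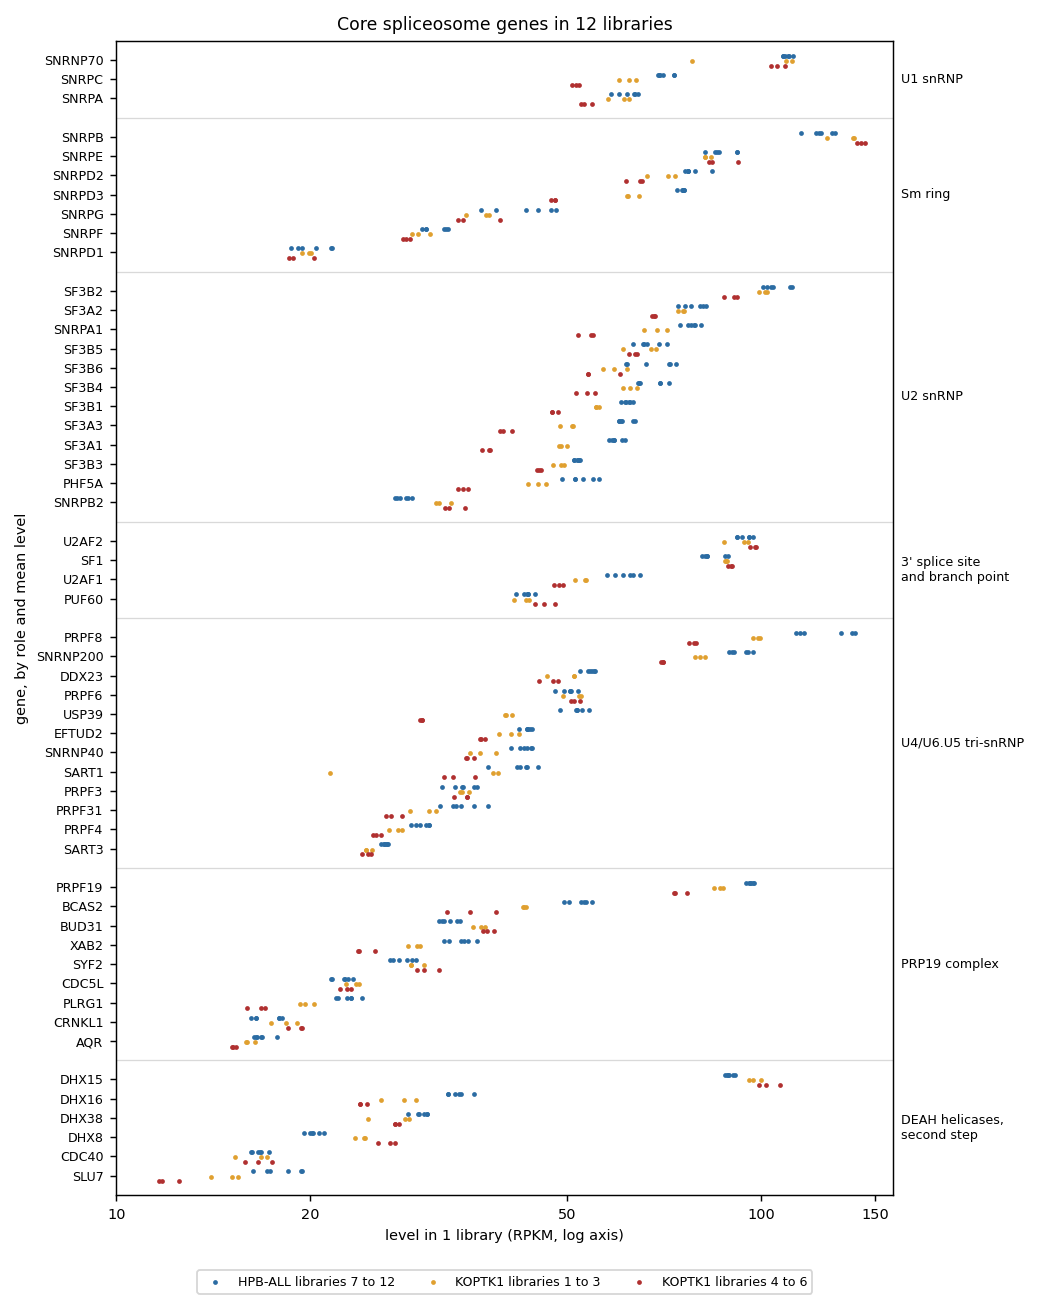
Level of each of the 53 core spliceosome genes in each of the 12 libraries, as 1 point per library in RPKM on a log axis, with genes sorted by role and mean level. KOPTK1 libraries 1 to 3 (yellow) mostly lie on the HPB-ALL (blue) side of libraries 4 to 6 (red), and SNRNP70 and SART1 are low in library 3 at 78.1 and 21.5 RPKM.

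The core spliceosome genes were mostly higher in HPB-ALL than in KOPTK1, by small amounts. Of the 53, 35 were higher in HPB-ALL (66.0%), 8 were lower, and 10 did not pass the test (edgeR quasi-likelihood test, Benjamini-Hochberg adjusted p under 0.05 over all genes tested). The lines differed in most of what they express: 65.5% of all genes tested were called, 31.4% higher and 34.1% lower in HPB-ALL. The median log2 difference, HPB-ALL minus KOPTK1, was 0.16 over the 53 genes (1.11-fold) and -0.03 over all genes tested. Without KOPTK1 library 3, 4 or 5, each left out alone, 5 genes were lower, as SF1, CRNKL1 and SYF2 missed the threshold. No core spliceosome gene both passed the test and differed by 1.5-fold, as 26.4% of all genes did. As bulk libraries hold many cells, fewer cells with a transcript and less of it per cell cannot be told apart. The labels do not say that the libraries came from separate cultures, so the p-values measure the spread between these libraries, which may be technical.

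Without KOPTK1 libraries 1 to 3, 37 genes were higher (69.8%) and 6 lower in HPB-ALL, against 35.3% and 34.8% of all genes, and 70.1% in either direction. The median log2 difference of the 53 genes was then 0.26, and 41 genes were called in both fits. The difference was larger in size for 45 of the 53 genes, and 8 reached 1.5-fold: USP39, PRPF8, SF3A1, SNRPD3, SF3A3, PHF5A, SLU7 and BCAS2. Of all genes, 36.5% passed the test at 1.5-fold in that fit, against 15.1% of the core genes. Without libraries 4 to 6 instead, 30 genes were higher (56.6%) and 5 lower, against 26.3% and 27.2% of all genes, and 53.5% in either direction, and the median log2 difference of the 53 genes was 0.13. Since all 53 genes were at least at 10 RPKM on average, they were also read against genes of that level: 34 were higher (64.2%) and 10 lower, against 39.8% and 37.7% of 9293 genes, and 77.5% called in either direction. The genes were chosen with earlier results of these data known, and these shares carry no test of the list.

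The 6 HPB-ALL libraries lay wholly above the 6 KOPTK1 libraries for 25 of the 53 genes and wholly below for 4, against 21.6% and 23.7% of all genes tested. HPB-ALL and libraries 4 to 6 did not overlap for 42 genes (79.2%), against 64.5% of all genes tested. In 23 of these 42, libraries 1, 2 and 3 all lay between these ranges, which was also so for 53.3% of the genes tested whose ranges did not overlap.

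**Figure D2:**
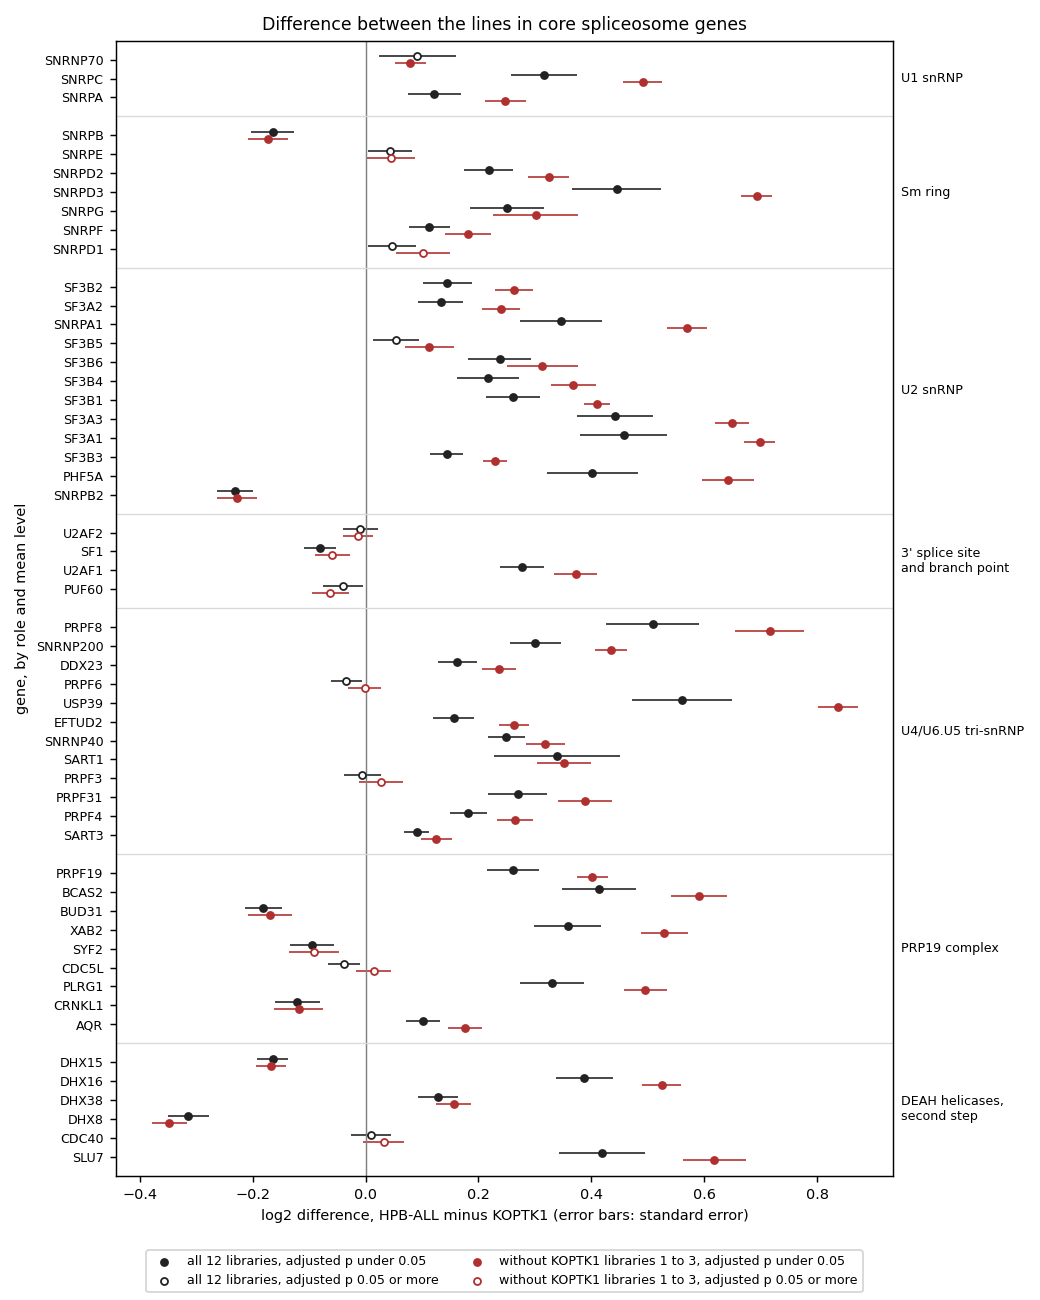
Log2 difference between the lines for each core spliceosome gene from all 12 libraries (black) and without KOPTK1 libraries 1 to 3 (red), with the standard error as bars and open points where the adjusted p-value was 0.05 or more. Most points lie to the right of 0, from -0.31 for DHX8 to 0.56 for USP39 in the 12 libraries.

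Promoter sequences are given for the genes with the largest differences in each direction. RefSeq promoters on GRCh38.p14, with 250 bases before and 50 after the start of transcription, were matched for 47 of the 53 genes. SNRPD1, PRPF3, PUF60, PHF5A, SF3B3 and SART3 had no entry. For 28 of the 47 the RefSeq start lay within 100 bases of the gene's start in the tables, and the sequences printed are from these. USP39, with the largest difference, had a RefSeq start 9242 bases away and is not shown. PRPF8 (chr17:1684818-1685117, minus strand) and SF3A1 (chr22:30356845-30357144, minus strand) were higher in HPB-ALL, DHX8 (chr17:43483725-43484024, plus strand) and SNRPB2 (chr20:16729776-16730075, plus strand) lower. Capitals mark matches, on either strand, to any of the motifs searched. These were the GC box with the letters GGGCGG, the box of the nuclear factor NF-Y with the letters CCAAT, and the core of the sites of ETS family factors with the letters CCGGAA. The others were the core of sites of the respiratory factor NRF1 with the letters GCGCATGC, the E-box bound by MYC and its relatives with the letters CACGTG, and the TATA box with the letters TATAAA.
PRPF8: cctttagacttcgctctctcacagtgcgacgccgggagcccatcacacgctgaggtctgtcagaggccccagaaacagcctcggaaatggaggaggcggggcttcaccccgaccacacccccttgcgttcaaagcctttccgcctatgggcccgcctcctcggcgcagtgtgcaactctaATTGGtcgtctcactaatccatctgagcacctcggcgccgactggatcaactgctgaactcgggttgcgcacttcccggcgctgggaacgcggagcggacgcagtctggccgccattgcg
SF3A1: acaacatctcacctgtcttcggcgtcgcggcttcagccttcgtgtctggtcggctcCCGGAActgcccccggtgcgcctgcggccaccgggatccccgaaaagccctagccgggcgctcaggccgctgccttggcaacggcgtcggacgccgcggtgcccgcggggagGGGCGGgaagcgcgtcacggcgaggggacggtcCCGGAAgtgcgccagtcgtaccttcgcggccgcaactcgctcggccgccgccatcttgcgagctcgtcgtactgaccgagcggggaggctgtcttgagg
DHX8: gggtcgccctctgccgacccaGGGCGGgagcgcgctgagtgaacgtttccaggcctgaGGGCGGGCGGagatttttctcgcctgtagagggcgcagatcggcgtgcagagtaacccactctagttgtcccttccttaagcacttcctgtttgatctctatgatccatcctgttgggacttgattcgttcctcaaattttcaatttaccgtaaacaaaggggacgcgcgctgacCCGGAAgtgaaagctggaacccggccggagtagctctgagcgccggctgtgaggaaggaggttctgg
SNRPB2: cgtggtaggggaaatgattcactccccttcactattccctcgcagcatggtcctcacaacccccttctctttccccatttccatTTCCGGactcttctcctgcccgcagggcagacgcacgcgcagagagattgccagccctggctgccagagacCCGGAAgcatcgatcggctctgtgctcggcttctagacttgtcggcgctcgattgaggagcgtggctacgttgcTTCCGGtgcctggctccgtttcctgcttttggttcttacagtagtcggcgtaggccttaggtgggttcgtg

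The letters CCGGAA occurred in 29 of the 47 core spliceosome promoters (61.7%), against 17.3% of all 35116 promoters in the RefSeq table and 34.4% of the 5651 promoters of tested genes with a mean of at least 10 RPKM. They were present in 20 of the 32 matched genes that were higher in HPB-ALL and in 6 of the 8 that were lower. GGGCGG occurred in 33 promoters (70.2%), against 45.0% of all promoters and 71.2% of those of genes at 10 RPKM or more. CCAAT occurred in 17 (36.2%, against 34.6% and 39.2%) and TATAAA in 2 (4.26%, against 11.5% and 5.31%). GCGCATGC occurred in 3 (6.38%, against 3.05% and 6.67%) and CACGTG in 2 (4.26%, against 7.26% and 11.2%). In DHX8 the GC boxes that start at bases 59 and 63 of the window overlap. A match of letters is a description of the window and not a binding site.

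In the U1 snRNP, which defines the 5′ splice site, 2 of the 3 proteins were higher in HPB-ALL. The 66.7% called was near the 65.5% of all genes tested, of which 31.4% were higher. SNRPC, the U1-C protein that stabilises pairing with the 5′ splice site, was at 69.2 to 73.3 RPKM in HPB-ALL and at 50.9 to 63.9 RPKM in KOPTK1, with a log2 difference of 0.32 ± 0.058 (SE; edgeR adjusted p = 0.00031), which was 0.49 without libraries 1 to 3 and 0.20 without libraries 4 to 6. SNRNP70, the U1-70K protein, had the highest level of the 3. It was at 108, 112, 110.0, 108, 111 and 109 RPKM in HPB-ALL libraries 7 to 12 and at 112, 109, 78.1, 109, 106 and 103 RPKM in KOPTK1 libraries 1 to 6. Only library 3 stood far from the rest, and the lines did not differ by the test (0.09 ± 0.068, edgeR adjusted p = 0.25). Without that library the log2 difference was 0.04 ± 0.026 (edgeR adjusted p = 0.22), while without libraries 1 to 3 it was 0.08 and passed (edgeR adjusted p = 0.016). SNRPA, the U1-A protein, had the lowest mean level of the list over the 12 libraries. It ranged from 58.4 to 64.3 RPKM in HPB-ALL (median 62.7) and from 52.5 to 62.4 RPKM in KOPTK1 (median 56.2), so the ranges overlapped. Its log2 difference of 0.12 passed in the 12 libraries (edgeR adjusted p = 0.032) and was 0.25 without libraries 1 to 3, but only 0.04 without libraries 4 to 6 (edgeR adjusted p = 0.36). It also missed the threshold when HPB-ALL library 7, 9 or 11 was left out and when only genes of at least 10 RPKM were tested (0.09, edgeR adjusted p = 0.061).

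The Sm ring is the 7 proteins that encircle the U1, U2, U4 and U5 snRNAs. Of these genes, 4 were higher in HPB-ALL (SNRPD3, SNRPG, SNRPD2 and SNRPF), 1 was lower (SNRPB) and 2 did not pass (SNRPD1 and SNRPE). The ring had 71.4% called and 57.1% higher, against 65.5% and 31.4% of all genes tested. Although the ring holds 1 copy of each protein, the gene means spanned 6.15-fold in HPB-ALL and 7.12-fold in KOPTK1, between SNRPD1 and SNRPB in both lines. RPKM was computed over all annotated exons, which sum to 4909 bases for SNRPD1 and 1154 bases for SNRPB. SNRPB, which also supplies the SmB′ form, was at 115, 129, 122, 124, 130.1 and 123 RPKM in HPB-ALL libraries 7 to 12. In KOPTK1 it was at 139, 127 and 139 RPKM in libraries 1 to 3 and at 141, 145 and 143 RPKM in libraries 4 to 6. The ranges overlapped through library 2. The log2 difference was -0.16 ± 0.038 (edgeR adjusted p = 0.0017), or -0.17 without libraries 1 to 3 and -0.12 without libraries 4 to 6. With no filter on low values it was -0.09 and missed the threshold (edgeR adjusted p = 0.067).

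SNRPD3, the SmD3 protein, showed the largest difference of the ring and the smallest spread within HPB-ALL. Its level was 74.0, 75.5, 75.5, 75.8, 75.6 and 75.9 RPKM in HPB-ALL libraries 7 to 12, against 61.9, 64.7 and 62.2 RPKM in KOPTK1 libraries 1 to 3 and 47.3, 47.9 and 48.0 RPKM in libraries 4 to 6. The 3 sets of libraries did not overlap. SNRPD3 differed between the lines by 0.44 ± 0.079 (edgeR adjusted p = 0.00024), or 0.69 ± 0.028 without libraries 1 to 3 and 0.27 without libraries 4 to 6. SNRPD1, the lowest of the ring, was at 18.6 to 21.6 RPKM in HPB-ALL (median 19.9) and at 18.5 to 20.3 RPKM in KOPTK1 (median 19.6). Its difference of 0.05 did not pass (edgeR adjusted p = 0.34), although it did with each library divided by its summed RPKM and with no filter on low values. SNRPE was at 81.7 to 91.8 RPKM in HPB-ALL and at 81.8 to 91.9 RPKM in KOPTK1.

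The U2 snRNP proteins, which bind the branch point region, were mostly higher in HPB-ALL. Of the 12 genes, 10 were higher in HPB-ALL, 1 was lower and 1 did not pass. That is 91.7% called and 83.3% higher, against 65.5% and 31.4% of all genes tested. The median log2 difference was 0.23, or 0.34 without libraries 1 to 3 and 0.14 without libraries 4 to 6. All 3 subunits of SF3A, the factor that completes the mature U2 particle, were higher in the 12 libraries, SF3A2 not without libraries 4 to 6. SF3A1 (chr22:30331988-30356947) was at 58.1 to 61.4 RPKM in HPB-ALL (median 59.1), at 49.9, 48.9 and 48.6 RPKM in KOPTK1 libraries 1 to 3 and at 37.8, 37.9 and 36.9 RPKM in libraries 4 to 6. SF3A3 was at 60.1 to 63.7 RPKM (median 60.7), at 48.8, 51.1 and 50.9 RPKM and at 41.0, 39.4 and 39.8 RPKM in the same sets. In both genes each set of libraries was clear of the next. The log2 difference was 0.46 ± 0.077 for SF3A1 (edgeR adjusted p = 0.00017) and 0.44 ± 0.067 for SF3A3 (edgeR adjusted p = 6.9e-05), with values of 0.70 and 0.65 without libraries 1 to 3 and of 0.28 and 0.30 without libraries 4 to 6. SF3A2 differed by 0.13 (edgeR adjusted p = 0.0088), a call that was lost without libraries 4 to 6 (0.07, edgeR adjusted p = 0.098), and its ranges overlapped from 74.4 to 75.9 RPKM.

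SF3B1, the branch point binding subunit of SF3B that is mutated in several blood cancers, varied little within HPB-ALL. Its level was 63.3, 61.4, 62.5, 61.7, 60.6 and 62.4 RPKM in HPB-ALL libraries 7 to 12, 55.5, 55.4 and 56.1 RPKM in KOPTK1 libraries 1 to 3 and 47.3, 47.4 and 48.4 RPKM in libraries 4 to 6. SF3B1 differed by 0.26 ± 0.047 on the log2 scale (1.20-fold, edgeR adjusted p = 0.00027), or 0.41 ± 0.023 without libraries 1 to 3 and 0.16 without libraries 4 to 6. SF3B2 had the highest level of the U2 list, at 101 to 112 RPKM in HPB-ALL (median 104) and 87.5 to 102 RPKM in KOPTK1 (median 95.4), and its difference of 0.15 (edgeR adjusted p = 0.0096) was lost without libraries 4 to 6 (0.07, edgeR adjusted p = 0.083). PHF5A, the small subunit that sits with SF3B1 around the branch point adenosine, differed by 0.40 ± 0.081 (edgeR adjusted p = 0.00063), or 0.64 without libraries 1 to 3 and 0.23 without libraries 4 to 6. SF3B5 did not pass in the 12 libraries (0.05, edgeR adjusted p = 0.26).

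The pair of proteins that bind the U2 RNA stem-loop went in opposite directions. SNRPA1, the U2A′ protein, was at 74.9 to 80.6 RPKM in HPB-ALL and at 52.0 to 71.4 RPKM in KOPTK1, with a log2 difference of 0.35 ± 0.073 (edgeR adjusted p = 0.00089), or 0.57 without libraries 1 to 3 and 0.19 without libraries 4 to 6. SNRPB2 (chr20:16729961-16742563), which encodes its partner U2B″, had the lowest level of the U2 list. It was at 27.2, 27.5, 28.7, 27.0, 28.1 and 28.3 RPKM in HPB-ALL libraries 7 to 12 and at 31.3, 33.0, 31.7, 32.8, 34.8 and 32.4 RPKM in KOPTK1 libraries 1 to 6. Every KOPTK1 library was above every HPB-ALL library, and libraries 1 to 3 overlapped libraries 4 to 6. The log2 difference was -0.23 ± 0.032 (edgeR adjusted p = 3.0e-05), also -0.23 without libraries 1 to 3, and -0.19 without libraries 4 to 6.

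Among the 4 genes that recognise the 3′ splice site and the branch point, only U2AF1 was higher in HPB-ALL. SF1 was lower, and U2AF2 and PUF60 did not pass. Of all genes tested, 65.5% were called, 31.4% higher and 34.1% lower. With 4 genes, 1 higher and 1 lower did not stand apart from these shares, and no test was made of the list. U2AF1, the small U2AF subunit that reads the AG at the intron end, was at 57.6 to 64.8 RPKM in HPB-ALL (median 61.8) and at 53.4, 51.5 and 53.5 RPKM in KOPTK1 libraries 1 to 3 and 47.7, 49.3 and 48.6 RPKM in libraries 4 to 6. It differed by 0.28 ± 0.039 on the log2 scale (edgeR adjusted p = 3.8e-05), or 0.37 without libraries 1 to 3 and 0.22 without libraries 4 to 6. The annotation used lists a near-identical copy of U2AF1 on the same chromosome (chr21:6484623-6499256). This entry took 12.1 to 14.9% of the reads of the pair in HPB-ALL and 16.0 to 20.7% in KOPTK1. Whether it is a separate gene was not tested. The copy differed by -0.11 (edgeR adjusted p = 0.21), so the split of reads between the copies leaves the value of U2AF1 uncertain.

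U2AF2, the large subunit that binds the polypyrimidine tract, had the highest level of this list. It ranged from 91.5 to 97.1 RPKM in HPB-ALL (median 94.6) and from 87.6 to 98.0 RPKM in KOPTK1 (median 95.8), with a log2 difference of -0.01 (edgeR adjusted p = 0.81). PUF60, a relative of U2AF2 that also binds near the 3′ splice site, had the lowest level, at 41.6 to 44.7 RPKM (median 43.4) and 41.3 to 47.8 RPKM (median 44.0). Its difference of -0.04 did not pass (edgeR adjusted p = 0.34). SF1, the first protein to bind the branch point, was lower in HPB-ALL by 0.08 on the log2 scale, and its call (edgeR adjusted p = 0.022) was lost without libraries 1 to 3 (edgeR adjusted p = 0.10).

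In the U4/U6.U5 tri-snRNP, the particle that brings the catalytic RNAs, 10 genes were higher in HPB-ALL and 2 did not pass, PRPF3 and PRPF6. The list had 83.3% called, all of them higher, against 65.5% called and 31.4% higher of all genes tested. None of its genes passed in the lower direction in the 12 libraries, but with only genes of at least 10 RPKM tested PRPF6 was lower by 0.07 (edgeR adjusted p = 0.043). USP39 (chr2:85612103-85649282), a protein needed to hold the tri-snRNP together, showed the largest difference of all 53 genes. It was at 54.0, 51.9, 52.7, 51.8, 51.6 and 48.8 RPKM in HPB-ALL libraries 7 to 12, at 41.1, 40.1 and 40.3 RPKM in KOPTK1 libraries 1 to 3 and at 29.7, 29.5 and 29.7 RPKM in libraries 4 to 6. The 3 sets stood apart by more than the range within each. The log2 difference was 0.56 ± 0.089 (1.47-fold, edgeR adjusted p = 9.9e-05), or 0.84 ± 0.035 (1.79-fold) without libraries 1 to 3 and 0.36 without libraries 4 to 6.

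PRPF8 (chr17:1650629-1684882), the scaffold that cradles the catalytic RNAs, had the highest mean level of any core spliceosome gene in HPB-ALL and the second largest difference. In HPB-ALL it was at 139.6, 133 and 138 RPKM in libraries 7, 8 and 9 and at 116, 115 and 113 RPKM in libraries 10, 11 and 12. In KOPTK1 it was at 99.0, 97.1 and 99.4 RPKM in libraries 1 to 3 and at 79.3, 78.8 and 77.2 RPKM in libraries 4 to 6. The HPB-ALL libraries thus fell into a higher and a lower trio, the same trios in which SHQ1 was at about 71 and 47 RPKM. SNRNP200, SLU7, CRNKL1 and DHX8, among others, were also higher in libraries 7 to 9 without overlap, DHX8 only narrowly (20.2 against 20.1 RPKM). CDC5L and SF3B5 split into the same trios in the opposite direction, and others such as U2AF1 did not split. The share of genes with such a split is not given here, for the core genes or for all genes. No column names an arm, and no test was made of this split. The log2 difference between the lines was 0.51 ± 0.082 (1.42-fold, edgeR adjusted p = 0.00011), or 0.72 ± 0.060 without libraries 1 to 3 and 0.36 without libraries 4 to 6.

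SNRNP200, the Brr2 helicase that unwinds U4 from U6, was at 97.0, 94.6, 95.3, 90.8, 90.2 and 89.2 RPKM in HPB-ALL libraries 7 to 12. In KOPTK1 it was at 81.9, 79.0 and 80.5 RPKM in libraries 1 to 3 and at 70.4, 70.5 and 69.9 RPKM in libraries 4 to 6. SNRNP200 differed by 0.30 ± 0.045 on the log2 scale (edgeR adjusted p = 6.7e-05), or 0.43 without libraries 1 to 3 and 0.21 without libraries 4 to 6. EFTUD2, the U5 GTPase that works with PRPF8 and SNRNP200, differed by 0.16 (edgeR adjusted p = 0.0018), or 0.26 without libraries 1 to 3 and 0.09 without libraries 4 to 6. SART3, which helps U4 and U6 to reassociate, had the lowest level of the list and the smallest spread in HPB-ALL, at 25.7 to 26.4 RPKM (median 26.1) against 24.1 to 24.9 RPKM in KOPTK1 (median 24.5). Its ranges did not overlap, although the log2 difference was 0.09 ± 0.022 (edgeR adjusted p = 0.0029).

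SART1, which links U4/U6 to U5, was the gene with the largest spread in KOPTK1. It was at 39.0, 38.3 and 21.5 RPKM in libraries 1, 2 and 3 and at 33.2, 36.0 and 32.2 RPKM in libraries 4, 5 and 6, against 37.7 to 45.0 RPKM in HPB-ALL. Library 3, which was also low for SNRNP70, held 30805 genes with at least 10 reads, against 25982 to 27993 in the other 11. The log2 difference of SART1 was 0.34 ± 0.11 with library 3 (edgeR adjusted p = 0.016) and 0.25 ± 0.055 without it (edgeR adjusted p = 0.0012). The part of this library's makeup in those values was not tested.

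The PRP19 complex and its partners join at activation and stabilise the catalytic core. Here 5 genes were higher in HPB-ALL, 3 were lower and 1 did not pass, CDC5L. Of the list 88.9% were called and 55.6% higher, against 65.5% and 31.4% of all genes tested. Of the core subunits, BCAS2 was higher by 0.41, PLRG1 by 0.33 and PRPF19 by 0.26. Without libraries 4 to 6 these values were 0.29, 0.22 and 0.17, and without libraries 1 to 3 they were 0.59, 0.50 and 0.40. CDC5L, also a core subunit, was at -0.04 (edgeR adjusted p = 0.26). With only genes of at least 10 RPKM tested, CDC5L was lower by 0.07 (edgeR adjusted p = 0.033). PRPF19, the ubiquitin ligase that names the complex, had the highest level of the list, at 94.7 to 97.6 RPKM in HPB-ALL (median 96.2), at 86.3, 84.4 and 87.3 RPKM in KOPTK1 libraries 1 to 3 and at 76.8, 73.5 and 73.2 RPKM in libraries 4 to 6. AQR, an intron-binding helicase, had the lowest level, at 16.4 to 17.8 RPKM (median 16.7) against 15.1 to 16.4 RPKM (median 15.6), with a difference of 0.10 (edgeR adjusted p = 0.0090) that was lost without libraries 4 to 6 (0.07, edgeR adjusted p = 0.073). BUD31 was at 34.1, 32.9, 33.8, 32.0, 32.2 and 31.6 RPKM in HPB-ALL libraries 7 to 12 and at 35.8, 36.8, 37.3, 38.6, 37.0 and 37.5 RPKM in KOPTK1 libraries 1 to 6. The ranges of BUD31 did not overlap. Its log2 difference was -0.18 ± 0.032 (edgeR adjusted p = 0.00025), or -0.17 without libraries 1 to 3 and -0.15 without libraries 4 to 6. Its deposited counts were not whole in 11 libraries, so reads shared with another feature enter this value. The calls of CRNKL1 (-0.12) and SYF2 (-0.09), the other genes that were lower, each depended on the libraries or the scaling used.

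The DEAH helicases and second-step factors drive the rearrangements of the catalytic spliceosome. Their log2 differences had the largest SD of the 7 lists (0.29). Of the 6 genes, 3 were higher in HPB-ALL (SLU7, DHX16 and DHX38), 2 were lower (DHX8 and DHX15) and CDC40 did not pass. The list had 83.3% called, against 65.5% of all genes tested, of which 31.4% were higher and 34.1% lower. DHX8 (chr17:43483963-43526786), the helicase that releases spliced mRNA, showed the largest difference in the lower direction of all 53 genes. It was at 21.0, 20.2, 20.6, 19.9, 20.1 and 19.6 RPKM in HPB-ALL libraries 7 to 12, at 23.4, 24.3 and 24.2 RPKM in KOPTK1 libraries 1 to 3 and at 27.0, 26.5 and 25.5 RPKM in libraries 4 to 6. Libraries 1 to 3 again lay between the others, here from the opposite side. The log2 difference was -0.31 ± 0.037 (edgeR adjusted p = 8.0e-06), or -0.35 without libraries 1 to 3 and -0.24 without libraries 4 to 6. DHX15, the helicase that takes the intron lariat complex apart, had the highest level of the list. It was at 87.7 to 90.9 RPKM in HPB-ALL (median 89.0) and at 96.9, 95.7, 99.9, 102, 99.3 and 107 RPKM in KOPTK1 libraries 1 to 6. Its log2 difference was -0.16 ± 0.028 (edgeR adjusted p = 0.00019), or -0.17 without libraries 1 to 3 and -0.12 without libraries 4 to 6.

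SLU7, which helps to select the 3′ splice site in the second step, had the lowest mean level of its list over the 12 libraries. It was at 19.4, 18.4, 19.3, 17.1, 16.3 and 17.3 RPKM in HPB-ALL libraries 7 to 12, at 14.0, 15.5 and 15.1 RPKM in KOPTK1 libraries 1 to 3 and at 11.6, 12.5 and 11.8 RPKM in libraries 4 to 6. Its log2 difference was 0.42 ± 0.075 (edgeR adjusted p = 0.00027), or 0.62 without libraries 1 to 3 and 0.28 without libraries 4 to 6. DHX16, the helicase of spliceosome activation, differed by 0.39 ± 0.051 (edgeR adjusted p = 2.0e-05), or 0.52 without libraries 1 to 3 and 0.30 without libraries 4 to 6. CDC40, another second-step factor, was at 16.2 to 17.3 RPKM in HPB-ALL and at 15.3 to 17.5 RPKM in KOPTK1, with a difference of 0.01 (edgeR adjusted p = 0.84).

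**Figure D3:**
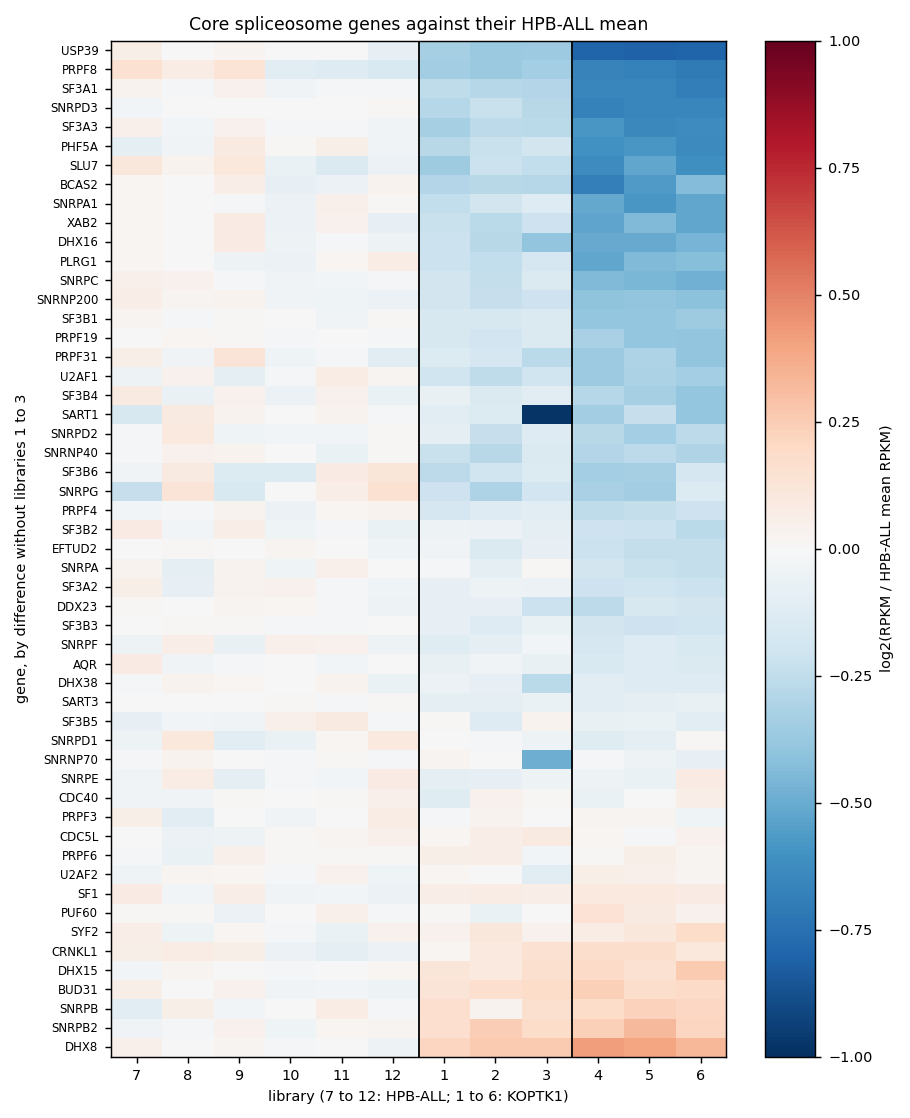
Log2 ratio of each core spliceosome gene (rows, sorted by its difference without libraries 1 to 3) to its HPB-ALL mean in each library (columns), with HPB-ALL at the left, KOPTK1 libraries 1 to 3 in the middle and libraries 4 to 6 at the right. USP39 at the top and DHX8 at the bottom both pass through a middle shade in libraries 1 to 3. In library 3, SART1 forms an isolated dark cell and SNRNP70 a paler one.

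Other genes of the splicing pathway differed between the lines in both directions. Of 67 genes in 6 neighbouring lists, 33 were higher in HPB-ALL (49.3%), 18 were lower and 16 did not pass, with a median log2 difference of 0.08. Over all genes tested the shares were 31.4% higher and 34.1% lower, and 65.5% were called. The shares of core and neighbouring genes were not tested against each other. Without libraries 1 to 3, 40 were higher and 15 lower, against 35.3% and 34.8% of all genes. The LSm rings, which bind U6 snRNA or take part in mRNA decay, divided evenly with 3 higher and 3 lower of 8. LSM8, which is specific to the nuclear ring of U6, was lower in HPB-ALL by 0.45 (edgeR adjusted p = 1.7e-05), and LSM1, specific to the cytoplasmic ring, by 0.31 (edgeR adjusted p = 3.3e-05). The minor spliceosome, which removes the rare U12-type introns, had 4 higher and 4 lower of 10, from SNRNP25 at 0.60 to SNRNP35 at -0.47.

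The SMN complex and Sm methylation list, whose proteins load the Sm ring onto snRNA, had 6 higher and 5 lower of 13. PRMT5, the methyltransferase that modifies Sm proteins, was at 40.7 ± 1.46 RPKM in HPB-ALL and 24.1 ± 6.25 RPKM in KOPTK1 (SD, n = 6 each; log2 difference 0.75, edgeR adjusted p = 0.00024). SMN2 was lower in HPB-ALL by 1.05 and SMN1 by 0.31, but these near-identical genes share reads, so their single values are uncertain. In the exon junction complex, which is left on mRNA after splicing, 4 of 7 were higher and 1 was lower. Of the other tri-snRNP and B complex proteins 8 of 12 were higher and 2 lower, with SNU13, the protein that binds the U4 snRNA stem, highest at 0.43. Of the other proteins of the activated and catalytic complexes 8 of 17 were higher and 3 lower. In the order given, these lists had 84.6%, 71.4%, 83.3% and 64.7% called, against 65.5% of all genes tested.

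**Figure D4:**
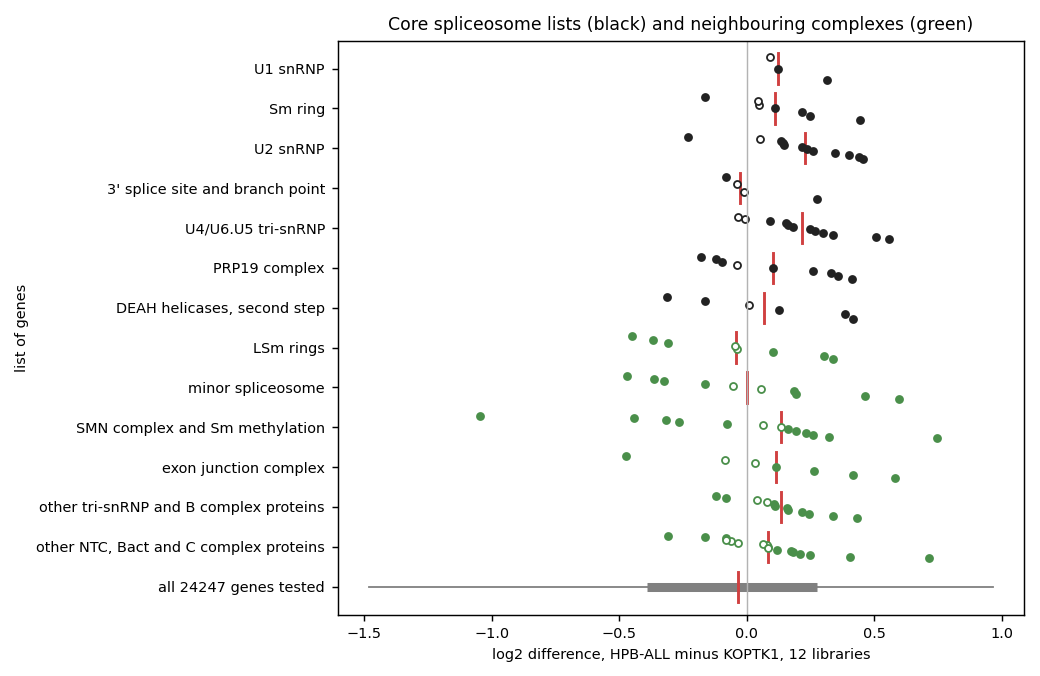
Log2 difference between the lines for each gene of the 7 core spliceosome lists (black) and the 6 neighbouring lists (green), filled where the adjusted p-value was under 0.05, with the list's median as a red line. The grey bar shows the 25th to 75th and the grey line the 5th to 95th percentile of the 24247 genes tested, from -1.48 to 0.97; the U2 snRNP and tri-snRNP lists have medians of 0.23 and 0.22 in the 12 libraries.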

How the data were processed

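RNA-Seq was done on rRNA-depleted RNA. Per the submitters' processing notes, Trimmomatic 0.36, STAR 2.5.4b, Picard 2.18.7, featureCounts 1.6.2, edgeR 3.22.3 and hg38 were used, whereas the methods of the study name another build and aligner for splicing. The authors deposited 1 table per line with estimated counts per gene for 6 libraries, not normalized, though named as RPKM; values are not always whole, since shared reads were divided, in 39 of the 53 genes in at least 1 library. The tables also hold 5 columns of the authors' own comparison (fold change, average CPM, F, p-value and FDR), which were not used. The strand setting of the counting is not given in the sources used here, so antisense and overlapping genes cannot be separated.

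Library columns are headed by numbers, and the labels tie each table to a line but no column to a sample or arm. Columns were therefore used as libraries of a line. Estimated counts were rounded and fitted with edgeR 4.0.16 (TMM, quasi-likelihood test, two-sided) in R 4.3.3, over genes with a mean of at least 1 RPKM in either line. RPKM used TMM-scaled totals and the summed exon length. Symbols matched 95.9% of identifiers. No 2 libraries of a line agreed within counting noise (chi-square per gene of 1.76 or more), so none was merged, which does not show separate cultures. Alternatives were limma 3.58.1 on log2(RPKM + 0.1), with pseudocounts of 1 and 0.01 too, DESeq2 1.42.0, other scalings and filters, and each library left out. Leaving out KOPTK1 libraries 1 to 3 or 4 to 6, and limma with 0.1, were chosen after seeing the data.

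The core genes and all lists were chosen with earlier results of these data known. Genes were given library by library, or by their lowest, median and highest value, by rule: the highest and lowest of each list, the 5 largest differences in each direction, SF3B1, U2AF1, PRPF8 and SNRNP200. Others are named for completeness of their list, and SNRPC, SNRPA1, SART1, PHF5A, DHX16 and the neighbouring genes were chosen after their values were seen. Some items of the neighbouring lists are not reported here.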

Additional observations from a re-analysis of the deposited data

Results flagged for a closer look

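In 7 of 106 groups (53 genes in 2 lines, 6 libraries each), 1 library lay far from the other 5 by Dixon's criterion. The criterion flags about 1 in 20 groups by chance when the libraries of a group form a single set. The KOPTK1 libraries fell into 2 sets, as did the HPB-ALL libraries for some genes, so that rate does not hold here. Whether the 7 flags exceed chance was not tested. In KOPTK1, SNRNP70 was at 78.1 RPKM in library 3, against 103 to 112 RPKM in the others, and DHX38 was at 24.6 RPKM in library 3, against 27.1 to 28.5 RPKM. SNRPB was at 127 RPKM in KOPTK1 library 2, against 139 to 145 RPKM, and SNRPE was at 91.9 RPKM in library 6, against 81.8 to 83.9 RPKM. In HPB-ALL library 7, SNRPD3 was at 74.0 RPKM, against 75.5 to 75.9 RPKM, and AQR was at 17.8 RPKM, against 16.4 to 16.8 RPKM. SNRPD2 was at 83.8 RPKM in HPB-ALL library 8, against 76.1 to 78.8 RPKM.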

How the results depend on the processing

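Under the 22 alternatives, 34 core spliceosome genes were called every time as in the 12 libraries, 30 of them higher and 4 lower in HPB-ALL (SNRPB2, BUD31, DHX8 and DHX15), and none turned direction with both calls past the threshold. The call changed in 15 core genes. The share of all genes tested that were called every time is not given here, while 65.5% of them were called in the 12 libraries. A minimum of 1.5-fold left 0 core genes and 4 neighbouring genes. The 8 lower core genes became 5 with each library divided by its summed RPKM, 5 with DESeq2, 4 with no filter on low values and 5 without KOPTK1 libraries 4, 5 and 6; the genes lost were among SF1, CRNKL1, SYF2 and SNRPB. With 1 library left out in turn, 5 to 8 were lower, and KOPTK1 libraries 3, 4 and 5 each gave 5 (edgeR, SF1, CRNKL1 and SYF2 lost); 40 to 43 core genes and 46 to 53 neighbouring genes were called. The median level in HPB-ALL was 52.6 RPKM with libraries divided by their summed RPKM, against 51.6 RPKM. The cause of these shifts was not tested. No paired analysis was possible because the library columns carry no replicate number of a sample. SHQ1 shRNA against control within each line was not run, since no column names an arm. Of the called genes that differed by about 0.1 or less on the log2 scale, SF1, SYF2 and AQR missed the threshold under at least 1 alternative and SART3 under none. Depth was lowest in KOPTK1 library 6, at 22.9 in units of 1000000 reads.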
